A study of Mus musculus with 126 samples.

Results

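The trophoblast lineage genes described here are the transcription factor genes Elf5, Cdx2, Tfap2c, Tead4, Gata2, Gata3 and Hand1 and the keratin genes Krt7, Krt8 and Krt18. They were chosen by name, and all 10 were found among the 23420 genes of the RNA-seq count table. The study is concerned with the parts that DNA methylation and histone acetylation play in transcription factor binding in mouse embryonic stem cells, and 8 of its 126 samples are RNA-seq libraries, in 4 groups of 2. The first group was wild type J1 embryonic stem cells given 0.0033% DMSO, the solvent control, for 36 h. The second was the same wild type cells given 5 ng/µl Trichostatin A (TSA), an inhibitor of histone deacetylases, for 36 h. The remaining groups were cells with the genotype Dnmt1-/-, Dnmt3a-/-, Dnmt3b-/- (triple knockout, TKO), which lack the enzymes that set and maintain DNA methylation, given DMSO or TSA in the same way. Below, control means DMSO and TSA-treated means TSA. All cultures were kept on gelatin with serum and LIF, and none was placed in trophoblast stem cell conditions. The labels do not say how many clones stand behind the TKO cells, or whether the 2 replicates of a group came from separate cultures, so p-values measure only the spread between these libraries, which may be technical.

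The trophoblast is the first lineage to part from the embryo proper and builds the placenta, while embryonic stem cells represent the inner cell mass. Tead4 with its coactivator Yap1 acts early in the outer cells of the embryo and switches on Cdx2 and Gata3, and Elf5, Cdx2, Tfap2c and Eomes then sustain trophoblast stem cells. Elf5 is known as a gate between the lineages, since its promoter is methylated and silent in embryonic cells and unmethylated in trophoblast. Gata2 and Hand1 act in placental cells, Hand1 above all in trophoblast giant cells. Krt7 and Krt8 are type II keratins and Krt18 is a type I keratin, and 1 of each type pair into the filaments of simple epithelia such as the trophectoderm.

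Because the TKO cells differ from the wild type in DNA methylation, the promoters of Elf5, of the keratin pair Krt8 and Krt18 and of Cdx2 are shown first. Each run is the 250 bases before the transcription start on the gene's own strand, 5′ to 3′, from RefSeq on GRCm38.p6, with every CpG, the dinucleotide that carries methylation, in capitals. The windows lie at chr2:103411848-103412097 (plus strand) for Elf5, chr5:147307250-147307499 (minus strand) for Cdx2, chr15:102004343-102004592 (minus strand) for Krt8 and chr15:102027966-102028215 (plus strand) for Krt18.
Elf5: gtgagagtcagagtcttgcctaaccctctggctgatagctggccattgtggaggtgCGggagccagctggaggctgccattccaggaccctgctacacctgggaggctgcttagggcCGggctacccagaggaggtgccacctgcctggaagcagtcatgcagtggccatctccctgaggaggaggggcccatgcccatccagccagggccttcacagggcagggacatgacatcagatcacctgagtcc
Cdx2: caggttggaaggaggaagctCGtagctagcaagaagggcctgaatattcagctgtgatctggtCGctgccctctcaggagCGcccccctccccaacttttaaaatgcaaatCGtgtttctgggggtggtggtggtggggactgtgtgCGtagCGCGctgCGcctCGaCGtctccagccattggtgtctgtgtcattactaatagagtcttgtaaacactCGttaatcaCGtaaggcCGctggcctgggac
Krt8: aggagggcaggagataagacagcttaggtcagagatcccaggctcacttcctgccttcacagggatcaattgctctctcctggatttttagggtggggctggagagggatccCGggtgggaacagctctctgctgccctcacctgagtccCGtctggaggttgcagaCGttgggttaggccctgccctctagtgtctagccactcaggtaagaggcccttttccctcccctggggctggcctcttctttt
Krt18: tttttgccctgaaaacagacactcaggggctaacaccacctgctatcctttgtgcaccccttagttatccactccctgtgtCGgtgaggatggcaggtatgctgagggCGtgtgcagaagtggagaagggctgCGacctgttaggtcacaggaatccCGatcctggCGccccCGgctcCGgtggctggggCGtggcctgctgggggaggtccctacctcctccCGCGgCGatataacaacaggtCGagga
The Elf5 window held 2 CpGs, and 29.0% of 32851 such windows genome-wide held 2 or fewer, against a median of 6. The Krt8 window was similarly poor, with 3 CpGs (37.8% of windows held 3 or fewer). Krt18 had 12 CpGs and Cdx2 had 13. The other matched members were richer, with 16 CpGs for Krt7, 19 for Gata3 and 24 for Gata2. A second, downstream RefSeq start of Elf5 (window chr2:103423818-103424067, plus strand) had 8 CpGs (59.7% of windows held 8 or fewer). Which Elf5 start the known methylation concerns was not examined here. Of the 10 members 7 were matched to a window, and Tfap2c, Tead4 and Hand1 were not. DNA methylation itself was not analysed here.

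The windows were also searched on both strands, overlaps allowed, for core letters of the 5 factors whose binding the series assayed. GGGCGG (SP1) occurred 4 times before Krt7, 2 times before Gata2 and 2 times before Gata3, and in 32.7% of all windows. GATGGC (YY1) occurred once before Elf5 and once before Krt18, and in 10.7% of all windows. The letters CGGAAG (GABPA, 13.6% of windows), GCATGCG (NRF1, 3.02%) and CACGTG (MAX, 6.02%) were not in any of the 7 windows at the table's gene starts. A match describes the letters only and is not evidence of binding.

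Levels are normalised CPM, that is counts scaled to a common library size with TMM factors, or RPKM, the same value per kilobase of exon, where genes are set side by side. Libraries held 13280631 to 15542527 counts, so that 3 counts, used as a detection floor, correspond to 0.193 to 0.226 CPM (counting error only). In DMSO, Dnmt1 was lower in TKO by a log2 difference of -1.78 ± 0.09 (SE; edgeR adjusted p = 1.47e-06), Dnmt3a by -3.00 ± 0.15 (edgeR adjusted p = 1.47e-06) and Dnmt3b by -3.72 ± 0.12 (edgeR adjusted p = 5.36e-08), and all 4 TKO libraries lay below all 4 wild type libraries for each. The stem cell gene Pou5f1 stood at 913 ± 31.7 CPM (SD, n = 2) in control wild type and 940 ± 11.3 in control TKO, and at 409 ± 67.3 and 350 ± 66.7 with TSA. Nanog stood at 251 ± 20.2, 420 ± 63.6, 188 ± 3.71 and 349 ± 37.8 CPM in the same order, so both defining genes of the labelled cell type were present in every group.

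Per length, the members spanned a wide range in control wild type. Krt18 and Krt8 were the most abundant at a mean of 214 and 161 RPKM, followed by Tfap2c at 12.4, Krt7 at 8.83, Tead4 at 3.60, Cdx2 at 1.18 and Gata2 at 0.939 RPKM. Hand1 at 0.455, Gata3 at 0.265 and Elf5 at 0.0902 RPKM were lowest. Neighbours whose 2 libraries overlapped in RPKM were Krt18 and Krt8, and Cdx2 and Gata2, and Gata3 and Elf5. With TSA, Cdx2 at 10.8 and Hand1 at 10.7 RPKM stood above Tead4 at 6.05 RPKM in wild type. In control TKO the order was changed by Cdx2 and the keratins. Cdx2, at 0.231 RPKM, stood below Gata2 at 1.34, Hand1 at 0.689 and Gata3 at 0.427 RPKM. Krt18 at 24.0 and Krt8 at 16.8 RPKM came close to Tfap2c at 14.3, and Krt7 at 1.95 stood below Tead4 at 2.89 RPKM. In TKO with TSA, Tfap2c was the most abundant member at 66.2 RPKM, beside Krt18 at 53.6, Krt8 at 20.0 and Hand1 at 15.7 RPKM.

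**Figure D1:**
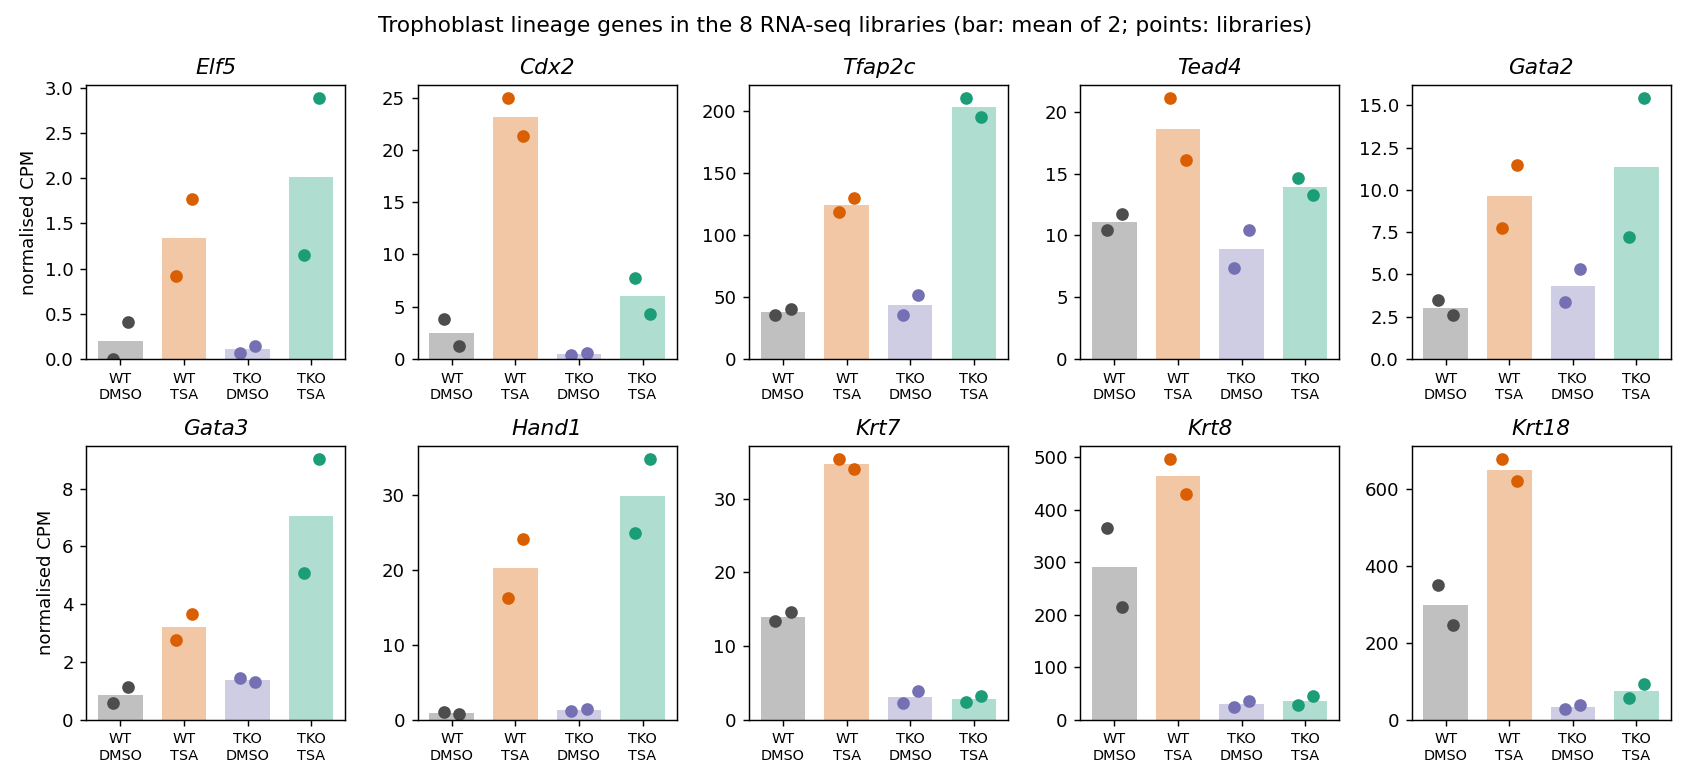
Normalised CPM (y axis, a separate linear scale from 0 for each gene) of the 10 trophoblast lineage genes in the 4 groups; bars are means of 2 libraries and points are the libraries. The 7 transcription factor genes are higher with TSA in both genotypes, whereas Krt7, Krt8 and Krt18 are low in both TKO groups.

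TSA raised all 10 genes in wild type cells, where 27% of the 15822 genes tested were called higher (edgeR quasi-likelihood test, adjusted p below 0.05). The members' median log2 fold change was 1.68, against 0.01 for all genes tested. In TKO cells TSA raised 8 of 10, with 30.8% of all genes called higher. These were the 7 transcription factors and Krt18, and the median over the 10 was 1.81 against 0.04. The libraries of the 2 treatments did not overlap for any of the 10 in wild type (77% of all genes) nor for 8 of 10 in TKO (82% of all genes), the exceptions being Krt7 and Krt8. In neither genotype was a member called lower (0 at an unadjusted edgeR p under 0.05 and 0 by DESeq2), against 25.9% and 27.9% of all genes. The split of all genes depends on the scaling: by total counts 36.7% were higher and 15.4% lower in wild type and 37.3% and 20.7% in TKO, and by upper quartile 33.9% and 17.7%, and 33.7% and 23.9%. All 10 passed the filter on low counts, but Elf5 did so only through its TSA groups, and Cdx2, Gata3 and Hand1 lay under it in 1 DMSO group each. The Elf5 calls are therefore a description. TSA in each genotype was set against that genotype's own DMSO libraries, so these 2 comparisons share no library. In bulk RNA, more cells of a type and more RNA per cell cannot be told apart.

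Hand1, a basic helix-loop-helix factor of giant cell fate, had the largest fitted fold change of the members in both genotypes. It stood at 0.999 and 0.729 CPM in control wild type and at 16.3 and 24.2 CPM with TSA. In TKO the values were 1.16 and 1.45 CPM in DMSO and 24.9 and 34.8 CPM with TSA. It was thus close to the filter level in both DMSO groups and well expressed in both TSA groups. The log2 fold change was 4.52 ± 0.32 (23.0-fold, edgeR adjusted p = 7.97e-06) in wild type and 4.51 ± 0.29 (22.8-fold, edgeR adjusted p = 1.89e-06) in TKO.

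Cdx2, the homeobox factor that sets up trophectoderm, stood at 3.85 and 1.22 CPM in control wild type and at 25.0 and 21.3 CPM with TSA. In TKO it stood at 0.410 and 0.582 CPM in DMSO and at 7.78 and 4.33 CPM with TSA. The control wild type libraries lay apart from each other, yet every TSA library was above every DMSO library. The rise was 8.93-fold in wild type (log2 3.16 ± 0.38, edgeR adjusted p = 9.05e-05) and 12.0-fold in TKO (log2 3.59 ± 0.54, edgeR adjusted p = 0.000221). Without the first control wild type library the wild type log2 value was 4.24.

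Elf5, the ETS-domain factor of trophoblast stem cells, was near the detection floor in DMSO. It had 0 and 5 counts in the control wild type libraries and 1 and 2 counts in control TKO. With TSA it had 15 and 26 counts in wild type (0.916 and 1.77 CPM) and 17 and 46 in TKO (1.15 and 2.89 CPM). In TKO cells without TSA no rise was detectable at this depth: the TKO to wild type ratio of depth-scaled counts in DMSO was 0.558, with an exact 95% counting interval of 0.0866 to 2.87. TSA gave a ratio of 6.95 (interval 2.75 to 22.5) in wild type and 19.4 (6.34 to 96.6) in TKO, the intervals covering counting error only. Both were called (edgeR adjusted p = 0.0214 and 0.00234). Since Elf5 passed the filter on low counts only through its TSA groups, these calls are a description. The wild type call was lost without the first control wild type library (log2 1.69, edgeR adjusted p = 0.131) and without the second TSA-treated wild type library (log2 2.21, edgeR adjusted p = 0.112). The fitted log2 value in TKO was 4.16, and 3.34 without the second TSA-treated TKO library; in wild type it was 2.74, and 7.31 without the second control wild type library, which leaves a control at 0 counts. Even with TSA, Elf5 stayed the lowest member per length, at 0.597 RPKM in wild type and 0.899 RPKM in TKO.

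Tfap2c, an AP-2 factor shared by trophoblast and germ cells, was the most abundant transcription factor of the set and the most precisely measured. It stood at 35.5 and 40.6 CPM in control wild type, 118 and 129.7 CPM in TSA-treated wild type, 35.6 and 51.9 CPM in control TKO, and 211 and 195 CPM in TSA-treated TKO. TSA raised it 3.26-fold in wild type (log2 1.71 ± 0.15, edgeR adjusted p = 2.13e-05) and 4.65-fold in TKO (log2 2.22 ± 0.15, edgeR adjusted p = 2.32e-06). The zinc finger factor Gata3 stood at 0.571 and 1.13 CPM in control wild type, 2.75 and 3.67 in TSA-treated wild type, 1.44 and 1.31 in control TKO, and 5.07 and 9.04 CPM in TSA-treated TKO. Its rise with TSA was 3.78-fold in wild type (log2 1.92 ± 0.43, edgeR adjusted p = 0.00359) and 5.12-fold in TKO (log2 2.36 ± 0.37, edgeR adjusted p = 0.000286). For both genes the TSA-treated TKO libraries were the highest of all 8.

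Gata2, the related zinc finger factor, stood at 3.50 and 2.59 CPM in control wild type, 7.75 and 11.5 in TSA-treated wild type, 3.35 and 5.31 in control TKO, and 7.24 and 15.4 CPM in TSA-treated TKO. It rose 3.13-fold in wild type (log2 1.65 ± 0.39, edgeR adjusted p = 0.00453) and 2.63-fold in TKO (log2 1.40 ± 0.36, edgeR adjusted p = 0.00674). Its TSA-treated TKO libraries lay far apart, and the TKO call was lost without the second of them (log2 0.74, edgeR adjusted p = 0.102) or without the first control TKO library (log2 1.09, edgeR adjusted p = 0.0706).

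Tead4, the TEA-domain factor at the top of the trophectoderm pathway, had the smallest fold changes of the transcription factors. It stood at 10.4 and 11.7 CPM in control wild type, 21.1 and 16.1 in TSA-treated wild type, 7.39 and 10.4 in control TKO, and 14.7 and 13.2 CPM in TSA-treated TKO. The rise was 1.68-fold in wild type (log2 0.75 ± 0.20, edgeR adjusted p = 0.0088) and 1.57-fold in TKO (log2 0.65 ± 0.21, edgeR adjusted p = 0.0176). Each call was lost without the first library of either group compared, with edgeR adjusted p = 0.051 (DMSO) and 0.0868 (TSA) in wild type and 0.166 and 0.0806 in TKO.

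All 3 keratin genes were lower in TKO than in wild type cells, in both treatments. In DMSO, 4 of the 10 members were lower in TKO (the 3 keratins and Cdx2) where 10.7% of all genes were called lower, and 0 were higher where 9.62% were (0 at an unadjusted edgeR p under 0.05, and 0 by DESeq2). Under TSA the same 4 genes were lower where 8.38% of all genes were, and Tfap2c and Gata3 were higher where 10% of all genes were. The libraries of the 2 genotypes did not overlap for 7 of 10 members in DMSO (59.8% of all genes) and 8 of 10 under TSA (63% of all genes).

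Krt8, the type II partner of Krt18, stood at 366 and 215 CPM in control wild type and at 24.0 and 36.7 CPM in control TKO. With TSA it stood at 498 and 429.9 CPM in wild type and at 27.7 and 44.6 CPM in TKO. The lowest wild type library was thus above the highest TKO library by several times. TKO was lower by 9.60-fold in DMSO (log2 -3.26 ± 0.29, edgeR adjusted p = 3.64e-05) and 12.8-fold under TSA (log2 -3.68 ± 0.29, edgeR adjusted p = 2.11e-05). TSA moved Krt8 little beside that. In wild type it rose 1.60-fold (log2 0.67 ± 0.25, edgeR adjusted p = 0.0428), a call lost with DESeq2 (adjusted p = 0.163) and, in edgeR, without the second control wild type library (log2 0.34, adjusted p = 0.274) or without the first or second TSA-treated wild type library (adjusted p = 0.144 and 0.0561). In TKO the log2 value was 0.26 ± 0.28 (edgeR adjusted p = 0.449).

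Krt18 stood at 351 and 247 CPM in control wild type and at 28.4 and 38.8 CPM in control TKO. With TSA it stood at 679.5 and 622 CPM in wild type and at 56.3 and 93.9 CPM in TKO. It rose with TSA in both genotypes, by 2.18-fold in wild type (log2 1.12 ± 0.22, edgeR adjusted p = 0.0016) and 2.24-fold in TKO (log2 1.16 ± 0.24, edgeR adjusted p = 0.00161). TKO was lower by 8.90-fold in DMSO (edgeR adjusted p = 1.68e-05) and 8.66-fold under TSA (edgeR adjusted p = 1.96e-05).

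Krt7, a type II keratin of simple epithelia widely used as a trophoblast marker, stood at 13.3 and 14.7 CPM in control wild type and at 35.4 and 34.0 CPM in TSA-treated wild type. In TKO it stood at 2.33 and 3.85 CPM in DMSO and at 2.43 and 3.20 CPM with TSA, so its treated and control libraries overlapped there. TSA raised it 2.48-fold in wild type (log2 1.31 ± 0.19, edgeR adjusted p = 0.00023), whereas in TKO the log2 value was -0.12 ± 0.26 (edgeR adjusted p = 0.705) and became 0.03 when libraries were scaled by total counts. TKO was lower by 4.54-fold in DMSO (edgeR adjusted p = 0.000128) and 12.3-fold under TSA (edgeR adjusted p = 3.5e-06).

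**Figure D2:**
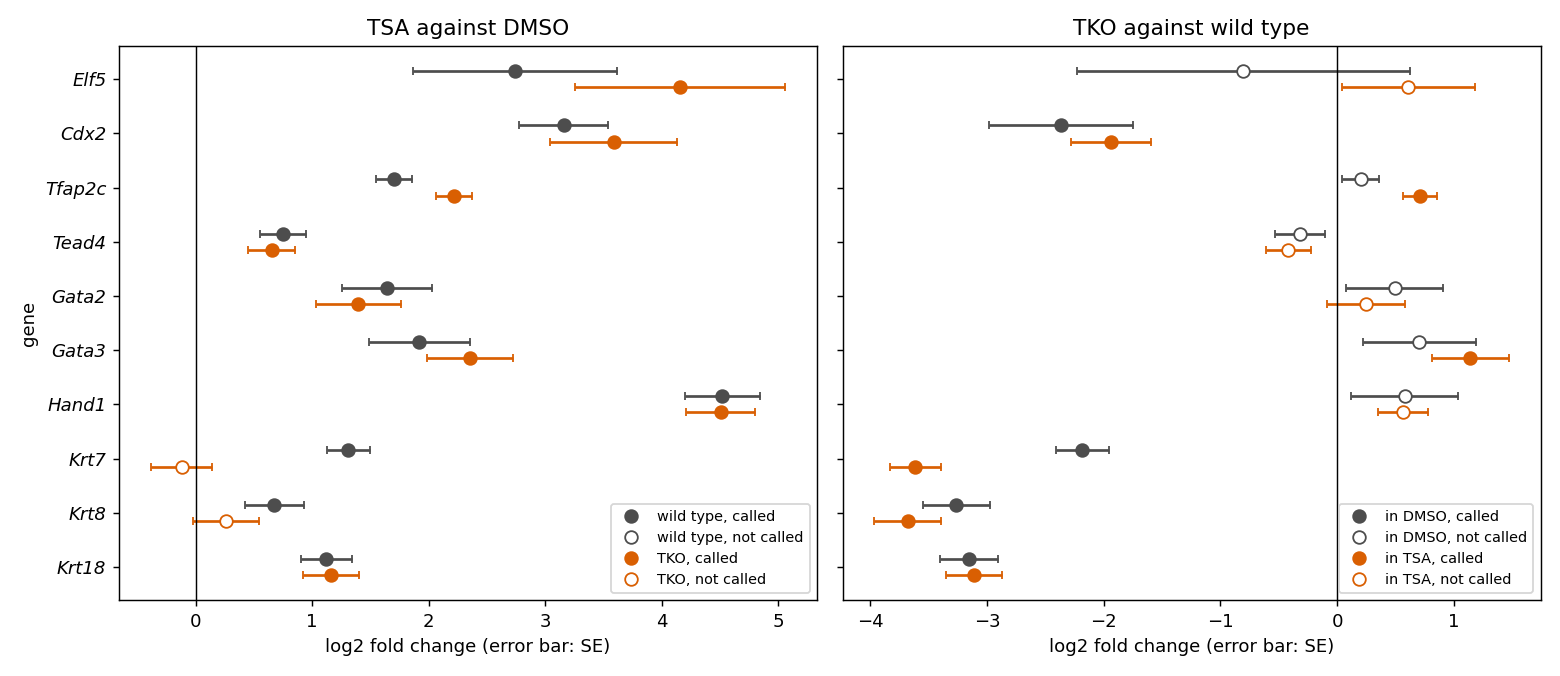
Log2 fold change with SE (x axis) of each of the 10 genes for TSA against DMSO in each genotype (left) and TKO against wild type in each treatment (right); filled points were called at an edgeR adjusted p below 0.05, n = 2 libraries per group. The transcription factors lie to the right of 0 on the left panel in both genotypes, and the keratins lie between -2.18 and -3.68 on the right panel.

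The test of the difference between the genotypes' TSA effects called 0 of the 10 members, where 1.35% of all genes were called (edgeR interaction term). At an unadjusted p under 0.05 it named 2 of them. Krt7 was the nearest, with a TSA effect smaller in TKO by a log2 value of -1.43 ± 0.32 (edgeR adjusted p = 0.0607). It was called by DESeq2 (log2 -1.44, adjusted p = 0.0108), which called 1 member. Tfap2c had a value of 0.51 ± 0.21 in the other direction (edgeR adjusted p = 0.299). For Hand1 and Krt18 the estimates were -0.01 ± 0.39 and 0.04 ± 0.32, and for Elf5 the value of 1.41 ± 1.55 was too imprecise to place.

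Krt8 and Krt18 lie 23873 bases apart on chromosome 15, at 101996711 to 102004342 (minus strand, 9 exons) and 102028216 to 102032026 (plus strand, 7 exons) in the deposited table, and Krt7 lies on the same chromosome at 101412403 to 101427806. The ratio of Krt8 to Krt18 RPKM was 0.809 and 0.676 in the control wild type libraries and 0.656 and 0.732 in control TKO, so the genotypes overlapped in DMSO. With TSA the ratio was 0.568 and 0.536 in wild type and 0.382 and 0.368 in TKO. Every TSA library was below every DMSO library, and every TSA-treated TKO library was below every TSA-treated wild type library. The differences in ratio were not tested. Summed over the type II genes Krt7 and Krt8 and the type I genes Krt18, Krt19 and Krt20, the type II to type I ratio was 0.665 and 0.575 in control wild type, 0.513 and 0.497 in TSA-treated wild type, 0.544 and 0.575 in control TKO, and 0.307 and 0.288 in TSA-treated TKO. Krt8 and Krt18 have processed pseudogene copies, and the treatment of reads that map to more than 1 place is not given in the sources used here, so the exact levels of both are uncertain. No member shares exon bases with another gene of the table.

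**Figure D3:**
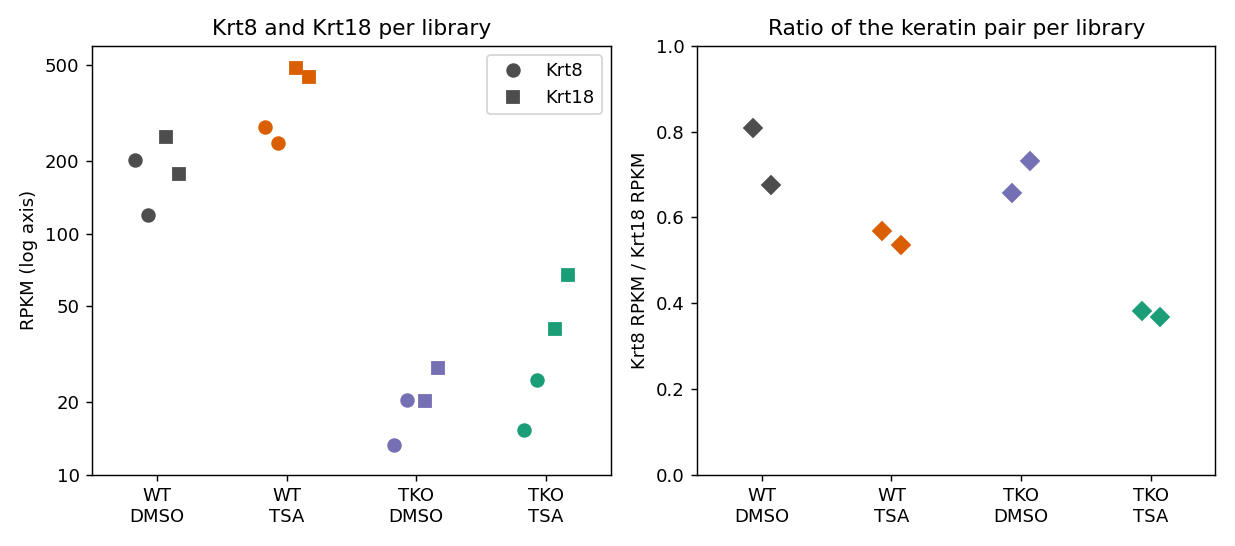
RPKM of Krt8 (circles) and Krt18 (squares) in each library on a log axis (left) and their ratio on a linear axis from 0 (right), by group with 2 libraries each. Both keratins are about an order of magnitude lower in TKO, and the ratio is lowest in the TSA-treated TKO libraries, at 0.382 and 0.368.

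Among the 7 transcription factors, genotype changed Cdx2 in DMSO, and Cdx2, Tfap2c and Gata3 under TSA. Cdx2 was lower in TKO by 5.16-fold in DMSO (log2 -2.37 ± 0.62, edgeR adjusted p = 0.0195) and 3.84-fold under TSA (log2 -1.94 ± 0.34, edgeR adjusted p = 0.00327). The call in DMSO was lost without the first control wild type library (log2 -1.30, edgeR adjusted p = 0.237) and without the first or second control TKO library (edgeR adjusted p = 0.12 and 0.0857). Under TSA, Tfap2c was 1.64-fold higher in TKO (log2 0.71 ± 0.14, edgeR adjusted p = 0.00707) and Gata3 2.21-fold higher (log2 1.14 ± 0.33, edgeR adjusted p = 0.0333). The Tfap2c call was lost without the first TSA-treated wild type library (edgeR adjusted p = 0.0616). The Gata3 call was lost with DESeq2 (adjusted p = 0.0665) and, in edgeR, without either TSA-treated wild type library (adjusted p = 0.217 and 0.056) or without the second TSA-treated TKO library (adjusted p = 0.308). Hand1 gave 0.58 ± 0.46 in DMSO and 0.56 ± 0.21 under TSA (edgeR adjusted p = 0.417 and 0.0913). Tead4 gave -0.32 ± 0.21 and -0.42 ± 0.19 (edgeR adjusted p = 0.322 and 0.161), and Gata2 gave 0.50 ± 0.42 and 0.25 ± 0.34 (edgeR adjusted p = 0.446 and 0.655). Elf5 under TSA gave a count ratio of 1.56 (exact 95% counting interval 1.03 to 2.36), and its libraries overlapped between the genotypes (edgeR adjusted p = 0.494). The comparisons of TKO in DMSO and of TSA in wild type share the control wild type libraries, so their values are given side by side only.

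With both changes at once, TKO cells with TSA were set against wild type cells with DMSO. All transcription factors but Tead4 were higher (6 of 10 members, with 31.7% of all genes called higher). The 3 keratins were lower, and 3 of 10 is near the share of all genes called lower (30.2%). By total counts these shares were 38.3% and 22.4%, and by upper quartile 35.7% and 25%. The libraries of these 2 groups did not overlap for any member (80.2% of all genes). Hand1 was 34.0-fold higher (log2 5.09 ± 0.32, edgeR adjusted p = 9.06e-07), Gata3 8.35-fold (edgeR adjusted p = 7.68e-05), Tfap2c 5.34-fold (edgeR adjusted p = 1.08e-06) and Gata2 3.71-fold (edgeR adjusted p = 0.00135). Elf5 had a count ratio of 10.8 (exact 95% counting interval 4.40 to 34.4, edgeR adjusted p = 0.00436). Because Elf5 passed the filter on low counts only through its TSA groups, this call is a description. Its fitted log2 value was 3.36, and 2.29 and 7.92 without the first and second control wild type library and 2.54 without the second TSA-treated TKO library. Gata2 had a log2 value of 1.89, and 1.24 without the second TSA-treated TKO library. Cdx2 was 2.33-fold higher (edgeR adjusted p = 0.023), a value that was log2 2.29 without the first control wild type library, and the call was lost without the second (log2 0.64, edgeR adjusted p = 0.143) or without the first TSA-treated TKO library (log2 0.74, edgeR adjusted p = 0.185). Tead4 gave a log2 value of 0.33 ± 0.20 (edgeR adjusted p = 0.172), and was called when libraries were scaled by total counts (log2 0.50, edgeR adjusted p = 0.0499). Krt8 was 8.03-fold lower (edgeR adjusted p = 8.06e-06), Krt7 4.94-fold lower (edgeR adjusted p = 1.09e-05) and Krt18 3.98-fold lower (edgeR adjusted p = 3.03e-05).

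Genes outside the set whose levels followed a member most closely were found by Pearson r of log2 CPM with 0.5 added, over the 8 libraries. These libraries form 4 groups, so r mostly reflects group means and is a description. For Elf5 they were Rpgrip1l (0.990) and Tac1 (0.986). For Hand1 they were Dgat2, Capn6 and Tmem132c (0.997 to 0.998), for Tfap2c Gng12, Fhit and Sptlc2 (0.995 to 0.997), for Gata2 Ctsd, Efcab12 and Slc34a2 (0.979 to 0.993), and for Gata3 Mir5133, Ptplad1 and Ubtfl1 (0.994 to 0.996). Cdx2 was nearest to Calcoco1, Otud7b and Arid3a (0.990 to 0.993), and Tead4 to Pip5kl1, Mlycd and Tmem241 (0.972 to 0.984). Another keratin was among the nearest for 2 of the 3 keratins: Krt14 with Fem1b and Lipg for Krt7 (0.978 to 0.993), and Krt19 with Hspb2 and Cox4i1 for Krt18 (0.991 to 0.997). Krt8 was nearest to Mbtps1, Axl and 9130008F23Rik (0.988 to 0.995).

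For the lists that follow, the shares of all genes called are those above: with TSA 27% higher and 25.9% lower in wild type and 30.8% and 27.9% in TKO, and for TKO against wild type 9.62% and 10.7% in DMSO and 10% and 8.38% under TSA. Of 13 trophoblast stem cell genes 12 were tested, and TSA raised 3 and lowered 1 in wild type, and raised 6 and lowered 2 in TKO; 3 of 12 is near the share of all genes. Eomes, the T-box factor that works beside Cdx2 and Elf5, stood at 7.83 ± 2.14, 5.53 ± 0.72, 2.62 ± 0.31 and 12.75 ± 0.52 CPM (SD, n = 2) in the groups in the order control wild type, TSA-treated wild type, control TKO, TSA-treated TKO. It rose with TSA in TKO (log2 2.28 ± 0.24, edgeR adjusted p = 2.34e-05) and gave a log2 value of -0.50 in wild type (edgeR adjusted p = 0.084). Fgfr2, the receptor for the FGF4 that trophoblast stem cells need, rose in wild type (log2 0.81, edgeR adjusted p = 0.000786) and in TKO (log2 2.04, edgeR adjusted p = 2.55e-06). Esrrb, which stem cells of both lineages use, fell by 1.49 on the log2 scale in wild type (edgeR adjusted p = 4.23e-05) and by 1.62 in TKO (edgeR adjusted p = 1.26e-05). TKO against wild type called 2 genes of this list higher and 1 lower in DMSO, and 5 higher under TSA.

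Of 14 placental differentiation genes 7 were tested. Of the untested genes, Prl2c2, Prl3b1, Synb and Tpbpa stood at 0 CPM in every group. The untested Prl3d1, Ctsq and Syna had group means of at most 0.297 CPM. TSA raised 3 and lowered 1 in wild type and raised 5 in TKO, against 27% and 30.8% of all genes raised. The gene lowered was Phlda2 (log2 -0.99, edgeR adjusted p = 0.00815). Gcm1, the factor that drives syncytiotrophoblast formation, rose by a log2 value of 2.49 in wild type (edgeR adjusted p = 0.000112) and 4.54 in TKO (edgeR adjusted p = 5.13e-06), the latter 5.43 without the second control TKO library. Its control TKO level of 0.394 ± 0.266 CPM (SD, n = 2) was under the low-count filter, so the TKO value rests on few counts. With TSA its means were 6.83 CPM in wild type and 9.25 CPM in TKO (TKO against wild type, edgeR adjusted p = 0.247). The placental genes Peg10 (1.95 and 2.63, edgeR adjusted p = 2.79e-06 and 3.49e-07) and Dlx3 (2.51 and 2.83, edgeR adjusted p = 0.0011 and 0.000341) also rose in both. Without TSA, mean Dlx3 levels lay around the low-count filter of about 0.682 CPM (wild type 0.736, TKO 0.676). They were clear of it only after TSA (wild type 4.18, TKO 4.81). The Dlx3 calls, counted among the 3 and 5 genes raised, are therefore a description. TKO against wild type called 1 of this list higher and 3 lower in DMSO, and 1 higher under TSA. Of 14 Hippo and Notch genes, which act upstream of Cdx2, TSA raised 4 and lowered 5 in wild type and raised 6 and lowered 5 in TKO, near the shares of all genes in wild type. The Tead4 coactivator Yap1 fell by 1.11 on the log2 scale in wild type (edgeR adjusted p = 1.25e-05) and by 0.73 in TKO (edgeR adjusted p = 5.08e-05), and the paralogue Tead2 fell by 1.21 and 0.96 (edgeR adjusted p = 4.15e-05 and 8.95e-05). TKO against wild type called 2 higher and 4 lower in DMSO and 2 higher and 1 lower under TSA.

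Of 14 trophectoderm epithelium genes, TKO against wild type called 8 lower and 2 higher in DMSO, and 6 lower and 2 higher under TSA, beside 10.7% and 8.38% of all genes lower and 9.62% and 10% higher. Krt19, a type I keratin that pairs with Krt8, stood at 76.6 ± 19.2 CPM (SD, n = 2) in control wild type and 12.3 ± 4.67 CPM in control TKO (log2 -2.64 ± 0.29, edgeR adjusted p = 0.000179). Dsp, which anchors keratin filaments at desmosomes, was lower by log2 values of -1.32 and -1.09 in DMSO and TSA (edgeR adjusted p = 0.000348 and 0.00127). The water channel gene Aqp3 was higher by 1.49 and 1.73 (edgeR adjusted p = 0.0186 and 0.00872). In DMSO its call was lost with DESeq2 (adjusted p = 0.0564) and, in edgeR, without the first wild type library (log2 0.98, adjusted p = 0.143) or the second TKO library (adjusted p = 0.122), and its value was 2.19 without the second wild type library. Under TSA its call was lost without the first wild type library (edgeR adjusted p = 0.0643) or the second TKO library (log2 1.07, edgeR adjusted p = 0.0679). TSA raised 5 of these 14 genes and lowered 1 in wild type, and raised 6 in TKO (27% and 30.8% of all genes raised). With both changes at once (31.7% of all genes higher, 30.2% lower), the trophoblast stem cell, placental, Hippo and Notch, and epithelium lists had 7, 6, 2 and 3 genes higher and 1, 1, 4 and 4 lower.

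**Figure D4:**
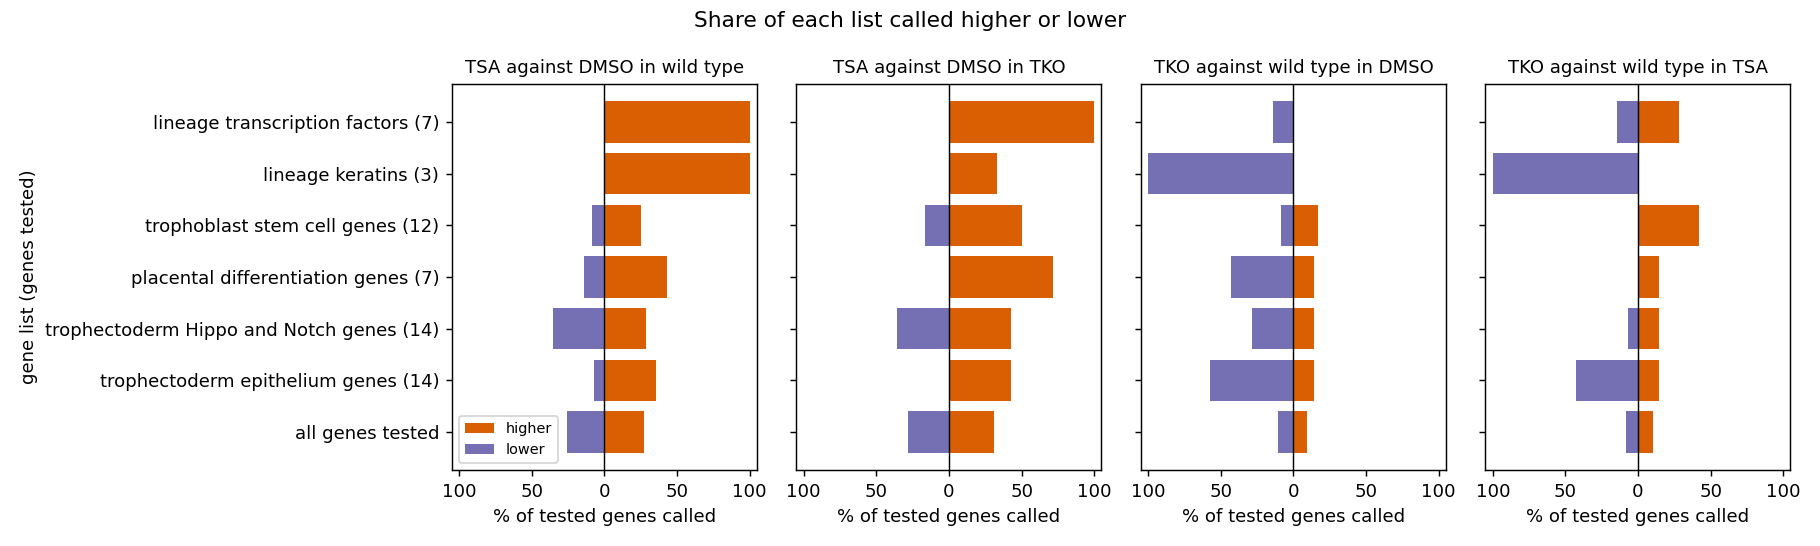
Percent of the tested genes of each list (number tested in brackets) called higher, to the right, or lower, to the left, in 4 comparisons, beside all genes tested. The bars of the 7 lineage transcription factors reach 100 to the right for TSA in both genotypes, and those of the 3 keratins reach 100 to the left for TKO in both treatments.

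Markers of other cells that the cultures could hold moved too, and their part in the members' levels was not tested. The summed level of 8 embryonic stem cell markers was 3070 to 3349 CPM in control wild type and 3751 to 3980 in control TKO, and 1793 to 1907 and 1716 to 1981 CPM with TSA, and TSA lowered 7 of the 8 in wild type and 6 of 8 in TKO. The 5 surface ectoderm markers, which include the keratins Krt5, Krt14 and Krt15, summed to 3.35 to 3.40 and 1.67 to 1.78 CPM in wild type and control TKO, and to 10.0 to 15.1 and 7.78 to 12.05 CPM with TSA. Of that list Trp63 and Tfap2b had at most 3 counts per library in both DMSO groups, and Krt5 had so few in control TKO. The 8 mesoderm markers summed to 15.5 to 24.6 and 8.73 to 9.57 CPM in the DMSO groups and to 44.9 to 51.8 and 23.1 to 35.8 CPM with TSA (Mesp1 at most 3 counts in control wild type, Foxf1 in control TKO). The summed level of the 8 primitive endoderm markers moved with genotype, at 105 to 114 and 85.5 to 98.4 CPM in control and TSA-treated wild type (Afp at most 3 counts in the former) and 359 to 381 and 293 to 311 CPM in TKO. That sum is mostly Lama1, at a mean of 95.9 and 73.6 CPM in wild type and 342 and 263 CPM in TKO. In DMSO, 5 of the 8 were called higher in TKO and 0 lower, beside 9.62% and 10.7% of all genes. Sox7, among the 5, had means under the low-count filter in control and TSA-treated wild type (0.476 and 0.536 CPM). Its means were above the filter only in TKO (2.11 and 0.973 CPM), so its call is a description. The 6 blood and endothelial markers summed to 67.8 to 95.8 and 87.6 to 124 CPM in DMSO and 40.5 to 46.3 and 41.9 to 47.6 CPM with TSA. Most of this was Pecam1, at a mean of 65.9 and 92.0 CPM in DMSO and 30.1 and 32.4 CPM with TSA. The 7 fibroblast markers summed to 305 to 390 and 232 to 299 CPM in DMSO and 255 to 268 and 225 to 276 CPM with TSA, with Lum (both DMSO groups), Col3a1 (control TKO) and Dcn (both TSA groups) at most 3 counts per library. That sum is mostly Vim, and the collagens moved on their own: Col1a1, Col1a2 and Col3a1 were lower in control TKO by -4.19, -3.44 and -5.75 (edgeR adjusted p = 0.000101, 0.000156 and 2e-04) and, with Lum and Thy1, made 5 of the 6 tested fibroblast markers called higher by TSA in TKO. TSA in wild type called 3 of these 6 higher and 2 lower. Lum, among those higher in both genotypes, was above the filter on low counts only with TSA, so its calls are a description. With TSA in wild type and TKO, 1 and 2 of 8 primitive endoderm markers tested were called higher, and 1 and 1 lower. The 2 in TKO included Afp, at a mean of 4.33 CPM in TSA-treated TKO and at most 0.466 CPM in the other groups. Its mean was above the low-count filter only in TSA-treated TKO, so its call is a description. For mesoderm, 4 and 3 of 7 were higher and 1 and 0 lower. For blood and endothelium, 1 and 1 of 5 were higher and 2 and 2 lower. For surface ectoderm, 3 and 3 of 5 were higher and 0 lower. These last calls included Krt5, above the low-count filter only with TSA. They also included Trp63 and Tfap2b, with means above it only in TSA-treated TKO (1.48 and 1.49 CPM). In TSA-treated wild type these 2 stood at means of 0.424 and 0.421 CPM. Trp63 was called there, but Tfap2b was not (edgeR adjusted p = 0.0872). The calls of Krt5, Trp63 and Tfap2b are therefore a description. Of all genes, 27% were higher and 25.9% lower in wild type, and 30.8% and 27.9% in TKO.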

How the data were processed

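Of 126 samples, the 8 RNA-seq libraries were used and 118 were not analysed here. Per the labels' protocols, DNase-treated total RNA went through ribosomal RNA depletion and a directional kit and was read as paired ends. The authors deposited raw read counts per gene, with exon positions and the summed exon length in bases as recorded by the authors. The submitters' processing notes name mm10, TopHat2 2.0.13, featureCounts 1.4.5-p1 and edgeR 3.22.3, with no roles. The annotation, strand setting and handling of multi-mapping reads are not given in the sources used here.

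The test on the counts as deposited used edgeR 4.0.16 (R 4.3.3): filterByExpr with a minimum count of 10 (about 0.682 CPM, 15822 genes kept), TMM factors, and 1 quasi-likelihood fit over 4 groups (4 residual degrees of freedom, common biological coefficient of variation 10.3%). The 6 contrasts were two-sided with Benjamini-Hochberg adjustment over all genes tested, called below 0.05. SE is the absolute log2 value divided by the square root of F and is approximate. Fitted folds of Elf5 rest on few counts, so ratios of pooled counts over scaled depth with exact 95% counting intervals are printed beside its fitted log2 values. PCR reads are not independent molecules, so intervals and floors cover counting error only. Replicates differed beyond sampling noise (chi-square per degree of freedom 5.28 to 12.2, highest in control wild type), so no pair was 1 library read again. All 8 were kept. The values do not show whether replicates came from separate cultures. The script was tested on simulated counts.

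The members and the gene lists (trophoblast stem cell, placental differentiation, Hippo and Notch, trophectoderm epithelium, paralogues of the members, and markers of 6 cell types) were chosen with earlier results of these data known. Named genes were all 10 members; per list and contrast up to 4 called genes by size of change, given a mean level of 1 CPM or more and libraries that do not overlap; for likeness the 3 nearest genes (1 of them is not reported here); and the 3 deleted genes, Pou5f1 and Nanog. Alternatives were other scalings, DESeq2 1.42.0, no filter, a replicate block, fits to only the 2 groups compared, and leaving out each library.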

Additional observations from a re-analysis of the deposited data

Results flagged for a closer look

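No trophoblast lineage gene of the set met a rule for a closer look, and groups of 2 libraries are too small for a test of single outlying samples. Genes discussed beside them did, because the TSA effect differed between the genotypes by the interaction test. Eomes had a TSA effect 2.79 higher in TKO than in wild type on the log2 scale (SE 0.34, edgeR adjusted p = 0.00533), and both TSA-treated TKO libraries were above both control wild type libraries. Fgfr2 had a difference of 1.22 (SE 0.20, edgeR adjusted p = 0.026), and the placental growth restrainer Cdkn1c one of 1.55 (SE 0.29, edgeR adjusted p = 0.0348). The calls of Fgfr2 and Cdkn1c were lost without either control TKO library, without the first TSA-treated wild type library and without the second TSA-treated TKO library (edgeR adjusted p = 0.052 to 0.132 and edgeR adjusted p = 0.0691 to 0.167). The deleted gene Dnmt3b had a difference of 1.33 (SE 0.16, edgeR adjusted p = 0.00521), its counted transcript being lower with TSA in wild type (log2 -0.72) and higher in TKO (log2 0.61), and its call was lost without the second control TKO library (edgeR adjusted p = 0.0504).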

How the results depend on the processing

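Over the 888 values of the 10 members under alternatives, 829 kept direction and side of the threshold, 22 lost and 6 gained a call, and 31 changed sign. Of the losses 20 came from leaving out a library and are given with the genes. Of the sign changes 0 touched a call, 27 came from leaving out a library, and the other 4 were Krt7 for TSA in TKO (0.0259 by total counts) and, in the interaction, Krt18 (-0.0108 by total counts, -0.0337 by upper quartile) and Hand1 (0.00138 with the replicate block). With 1 library left out, uncalled log2 values that changed sign ran from -0.45 to 0.27 (Krt7) and -0.13 to 0.59 (Krt8) for TSA in TKO cells; from -1.87 to 3.77 (Elf5, where a control library at 0 counts is left alone) and -0.0927 to 0.45 (Tfap2c) for TKO against the wild type in DMSO; from -0.21 to 1.14 (Elf5) and -0.40 to 0.69 (Gata2) in TSA. For the interaction they ran from -3.16 to 2.48 (Elf5), -0.65 to 1.00 (Cdx2), -0.33 to 0.17 (Tead4), -0.90 to 0.19 (Gata2), -0.11 to 0.88 (Gata3), -0.28 to 0.29 (Hand1) and -0.38 to 0.36 (Krt18).

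The genes called in the interaction test were 213, and 401 with DESeq2, 488 without the low-count filter and 633 with the replicate block, and the members called were 0 against 1 in each of these 3, always Krt7. Leaving out 1 library at a time gave 10 to 410 genes for the interaction, 1458 to 3331 for TKO in DMSO (3220 in full; 1703 without the first wild type library, 1806 and 1458 without the first and second TKO library) and 941 to 3443 for TKO under TSA (2910 in full; 941 without the first wild type and 1356 without the second TKO library). The cause was not tested.

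Same-numbered libraries deviated together only weakly (r 0.0673 to 0.325), and with 2 pairs per comparison and no label saying what a number marks they were not treated as pairs. With the replicate block 9256 genes were called for TSA in wild type cells and 10039 in TKO cells, 4217 and 4097 for TKO in DMSO and TSA, and 10413 for both changes. The members called with the block were 10, 8, 4, 7 and 9, the added call being Hand1 in TKO under TSA (log2 0.57, edgeR adjusted p = 0.013), and Krt7 in the interaction (log2 -1.44, edgeR adjusted p = 0.0205). Scaling by total counts moved the median of all genes by TSA to a log2 value of 0.22 in wild type cells and 0.19 in TKO cells, and reversed no called member. Elf5 is limited by depth, with at most 5 counts in any DMSO library.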

Other observations

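Between Krt7 and Krt18 the deposited table lists 29 other genes, mostly type II keratins, of which 6 were tested. This stretch and the genes named from it were chosen after the values were seen. The 5 named here passed the filter on low counts only through the groups where they are high, so their counts are given as a description. Krt6a, a keratin of stratified and stressed epithelium, had 0 counts in both wild type DMSO libraries and 15 and 10 counts in TKO DMSO, and with TSA 3 and 2 counts in wild type and 11 and 21 in TKO. Krt71 had 31 and 34 counts and Krt4 had 18 and 19 in wild type TSA, and both had at most 9 in any other library. For 4732456N10Rik these were 14 and 17 counts, and at most 8. Krt5, the basal epidermal keratin, had 2 and 5 counts in wild type DMSO and 59 and 110 with TSA, and 3 and 1 against 71 and 101 in TKO.

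Of 21 paralogues of the members 18 were tested. TSA raised 7 and lowered 1 in wild type, and raised 9 and lowered 2 in TKO, where 27% and 25.9%, and 30.8% and 27.9%, of all genes were. Among the 9, Tfap2b had a mean above the low-count filter only in TSA-treated TKO (1.49 CPM, at most 0.421 CPM in other groups). Its calls, including that for TKO against wild type under TSA, are a description. Cdx1, the closest relative of Cdx2, rose with TSA by a log2 value of 2.37 ± 0.32 in wild type (edgeR adjusted p = 0.000156) and 2.70 ± 0.46 in TKO (edgeR adjusted p = 0.000485). It was lower in TKO by -2.25 ± 0.49 in DMSO (edgeR adjusted p = 0.00797) and -1.92 ± 0.30 under TSA (edgeR adjusted p = 0.00169). The call in DMSO was lost without the first wild type library (log2 -1.54, edgeR adjusted p = 0.084) or the first TKO library (edgeR adjusted p = 0.0638), and the TSA value in wild type was 3.09 without the first DMSO library. Cdx2 had log2 values of 3.16, 3.59, -2.37 and -1.94 in the same 4 comparisons. The type I keratins Krt19 and Krt20 were lower in TKO in DMSO by -2.64 ± 0.29 (edgeR adjusted p = 0.000179) and -1.88 ± 0.41 (edgeR adjusted p = 0.00799), and the Krt20 call was lost without the first TKO library (log2 -1.57, edgeR adjusted p = 0.0726). TKO against wild type called 3 paralogues higher and 5 lower in DMSO and 4 higher and 2 lower under TSA, where 9.62% and 10.7%, and 10% and 8.38%, of all genes were, and both changes together called 7 higher and 2 lower (31.7% and 30.2% of all genes).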
